A study of Mus musculus with 12 samples.

Results

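The cytosolic ribosomal protein genes encode the proteins of the ribosome that translates mRNA in the cytoplasm, as distinct from the mitochondrial ribosome. They were taken by symbol: protein-coding mouse genes named Rpl or Rps with a number, the P-stalk genes Rplp0, Rplp1 and Rplp2, and Rpsa, without the kinases whose symbols begin with Rps6k. Of the 55604 genes in each count table, 103 symbols matched the name pattern, and removing 10 kinases and 7 pseudogenes left 86 genes, 52 of the large subunit and 34 of the small subunit. Rpl7l1 and Rps19bp1 match by name, and Rps19bp1 encodes a protein that binds a ribosomal protein. Fau and Rack1, which encode ribosomal proteins under other names, fall outside the rule and are described separately.

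The libraries were mRNA sequencing of bone marrow-derived macrophages from C57BL/6 mice, grown for 7 days in M-CSF at 20 ng/ml, the growth factor that turns marrow cells into macrophages. In the first group of 4 libraries the macrophages received nothing further (macrophages alone). In the second group of 4 they were fed dead control cells of the mouse melanoma line B16-F10, and in the third group of 4 they were fed dead STC1OE B16-F10 cells (corpses), in both cases at a ratio of 1 to 5 for 20 hours, with unbound corpses then washed off. STC1OE is the labels' name for the melanoma line modified in stanniocalcin 1, a secreted glycoprotein. All 12 libraries share the strain and the culture, and the engulfment was done in a dish. No label says how the melanoma cells were killed, whether the modified line is 1 clone or which side of the ratio is the corpses. The design text describes 4 independent experiments per condition.

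A ribosome holds 1 copy of nearly every ribosomal protein, so the genes are transcribed at broadly matched levels, and surplus protein that finds no place in a subunit is degraded. Their mRNAs begin with a C followed by an unbroken run of pyrimidines, the 5′ terminal oligopyrimidine (TOP) tract, through which mTORC1 and the RNA-binding protein LARP1 govern their translation and their stability. In macrophages, protein synthesis is retuned during activation and phagocytosis, and the mRNA level reported here is 1 input to it, separate from translation itself.

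The bases around the start of transcription are shown for a few genes because they are the place where the tract lies, and because the genes below fell, stayed level or rose. RefSeq promoter entries on GRCm38.p6 existed for 66 of the 86 genes, and 20 had none. Each line gives the 30 bases from 15 before the listed start to 15 from it on, 5′ to 3′ on the gene's own strand, with capitals for the longest run of C and T letters that begins with C, where it has at least 5 letters.
Rps6 (chr4:86857353-86857382, minus strand): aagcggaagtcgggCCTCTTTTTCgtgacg
Rpl26 (chr11:68901551-68901580, plus strand): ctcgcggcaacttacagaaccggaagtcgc
Rpl37a (chr1:72711245-72711274, plus strand): ttccgctcgccggtctaaaaccgcgcatgc
Rps2 (chr17:24720048-24720077, plus strand): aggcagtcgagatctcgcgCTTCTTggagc
Rplp0 (chr5:115559452-115559481, plus strand): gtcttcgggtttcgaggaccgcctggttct
Rplp2 (chr7:141447636-141447665, plus strand): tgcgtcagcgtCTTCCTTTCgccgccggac
Rpl7l1 (chr17:46782642-46782671, minus strand): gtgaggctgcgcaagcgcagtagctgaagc

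Rps6, Rps2 and Rplp2 carry such a run in this window, and the printed windows of Rpl26, Rpl37a, Rplp0 and Rpl7l1 do not. Over all entries, 40 of 66 ribosomal protein genes (60.6%) held a run of at least 5 letters, against 36.4% of the 27025 genes in the RefSeq table. The share was 60% for large subunit genes and 61.5% for small subunit genes. In the 300 bases from 250 before the start to 50 after it, searched on both strands, the letters CCGGAAG, found in sites of ETS family factors, stood in 37.9% of the ribosomal protein genes and 9.12% of all genes. The letters TATAAA stood in 9.09% and 14.2%. A listed start can differ by some bases from the start used in the cells, and these letters are a description of the windows.

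Every library gave 28488441 to 39981074 counts assigned to genes, and the precision of a value rests on them: expressed as CPM, which is counts scaled to a common library total, 3 counts correspond to 0.105 at the lowest depth and 0.075 at the highest. In the chi-square comparison of gene counts, all pairs of replicates differed by more than sampling noise, so no library was a repeat of another. Stc1, the gene that names the modified melanoma line, had 0 to 3 counts in macrophages alone and with control corpses and 2 to 7 with STC1OE corpses, too few to be tested, so it checks the labels of whole macrophage cultures poorly. The 9 macrophage markers summed to 16096 to 16990 CPM in macrophages alone, 13838 to 15519 with control corpses and 13742 to 14891 with STC1OE corpses, and 4 of the 9 were higher and 5 lower in both comparisons with macrophages alone. The 5 pigment cell genes Tyrp1, Dct, Pmel, Mlana and Tyr summed to 0.205 to 0.593 CPM in macrophages alone, 8.57 to 11.9 with control corpses and 2.85 to 3.86 with STC1OE corpses.

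Of the 86 genes, 84 passed the filter on low counts and were tested, 50 of the large and 34 of the small subunit, among 16406 genes in all. Rpl10l, a copy of Rpl10 known from testis, had 0 counts in all 12 libraries. Rpl3l, the copy of Rpl3 known from muscle, had 0.0841 to 0.306 CPM per library and was not tested. Of the 84, 76 had a mean of at least 10 CPM. The other 8 were Rpl13a, Rpl22l1, Rpl23a, Rpl24, Rpl36al, Rpl39l, Rps10 and Rps27rt. Exons of Rpl24, Rpl13a, Rps10 and Rpl36al overlap another annotated gene on the same strand, over 47%, 35.4%, 20.6% and 24.5% of their length. Exons of Rpl23a and Rpl35 overlap another gene on either strand over 62.3% and 66.2%. No source used here says whether the counting used strand, so the low levels of these genes may not be levels of their mRNA.

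Per kilobase of transcript in macrophages alone, the highest levels were those of Rplp1 at 961 ± 50.5 CPM per kilobase (SD, n = 4), Rpl41 at 922 ± 13.7 and Rps14 at 689 ± 16.6. Rplp1 encodes an acidic P-stalk protein, Rpl41 the smallest ribosomal protein, and Rps14 a protein of the small subunit platform. Rplp1 and Rpl41 lay within 1 SD of Rplp1 of each other, and Rps14 lay below both. The lowest tested levels per kilobase were 0.761 for Rpl39l, 1.2 for Rpl24 and 2.24 for Rpl36al.

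Ribosomal protein genes of both subunits were lower in macrophages that had been given melanoma corpses than in macrophages alone. They took 1.90% to 1.96% of the assigned counts in macrophages alone, 1.63% to 1.72% with control corpses and 1.54% to 1.64% with STC1OE corpses. The 4 libraries of macrophages alone were thus above all 8 libraries with corpses, while the corpse groups overlapped. In mean ± SD the shares were 1.93 ± 0.0243%, 1.67 ± 0.0349% and 1.58 ± 0.0429% (n = 4 each). In a culture, fewer cells of a type and less RNA per cell cannot be told apart, and a share of counts can also move because other mRNAs move. On the CPM scale corrected for library composition (TMM), the summed level was 18919 ± 165, 16582 ± 366 and 16309 ± 329 CPM, a difference of -12.4% with control corpses and -13.8% with STC1OE corpses.

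Large and small subunit genes were lower by similar amounts. The large subunit genes took 1.1% of the counts in macrophages alone, 0.952% with control corpses and 0.905% with STC1OE corpses (means of 4 libraries). For the small subunit genes these means were 0.837%, 0.714% and 0.68%. The ratio of large to small subunit counts was 1.30 to 1.32 in macrophages alone, 1.33 to 1.34 with control corpses and 1.32 to 1.34 with STC1OE corpses. On the TMM scale the summed large subunit level differed by -11.7% and -13.2%, and the small by -13.2% and -14.5%, with control and STC1OE corpses against macrophages alone.

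**Figure D1:**
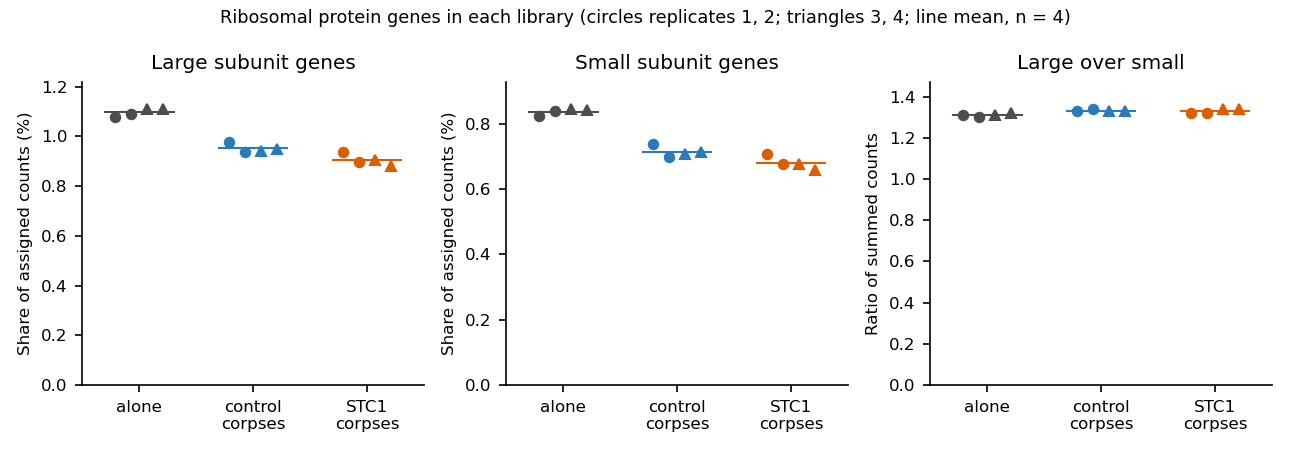
Percent of assigned counts on ribosomal protein genes of the large and small subunit in each of the 12 libraries, with the mean of each group. Macrophages alone lie at 1.90% to 1.96% over both subunits and the libraries with corpses at 1.54% to 1.72%.

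Against macrophages alone, 62 of the 84 tested genes were lower with control corpses (edgeR quasi-likelihood test, Benjamini-Hochberg adjusted p below 0.05 over all 16406 genes), 35 of 50 large and 27 of 34 small subunit genes. Among all genes tested, 20.5% were lower and 19.7% higher. The only gene of the set that was higher was Rpl7l1, and without it and Rps19bp1, 0 of 82 genes were higher and 62 lower. The median log2 fold change over the 84 genes was -0.22, a difference of -13.9%, with quartiles of -0.32 and -0.08, beside a median of -0.00 over all genes tested. The median was -0.22 for the large and -0.22 for the small subunit genes. In 55 genes, 29 large and 26 small, all 4 libraries with control corpses lay below all 4 of macrophages alone, which held for 18.9% of all genes.

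With STC1OE corpses, 59 of the 84 genes were lower than in macrophages alone, 34 large and 25 small, where 22.4% of all genes were lower and 21.4% higher. The 4 genes that rose were Rpl7l1, Rplp1, Rpl27 and Rpl22l1. The median log2 fold change was -0.20, a difference of -12.9%, with -0.20 for large and -0.21 for small subunit genes, beside -0.03 over all genes. All 4 libraries lay below all 4 of macrophages alone in 53 genes, 30 large and 23 small, against 20.2% of all genes. Both corpse comparisons use the same macrophages-alone libraries, so their counts are not independent of each other.

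The falls were small and broad. Among the genes that fell, the median fall was 1.18-fold with control corpses and 1.2-fold with STC1OE corpses, and 28 and 29 genes were past 1.2-fold. Only 1 gene in each comparison was past 1.5-fold, Rpl21 at 1.59-fold and Rpl17 at 1.54-fold. When edgeR tested each gene against a change of at least 1.2-fold, 16 genes were lower with control corpses (5.8% of all genes) and 24 with STC1OE corpses (7.41%), and no gene was higher. Leaving out each library in turn kept 51 of the 62 calls and 51 of the 59.

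**Figure D2:**
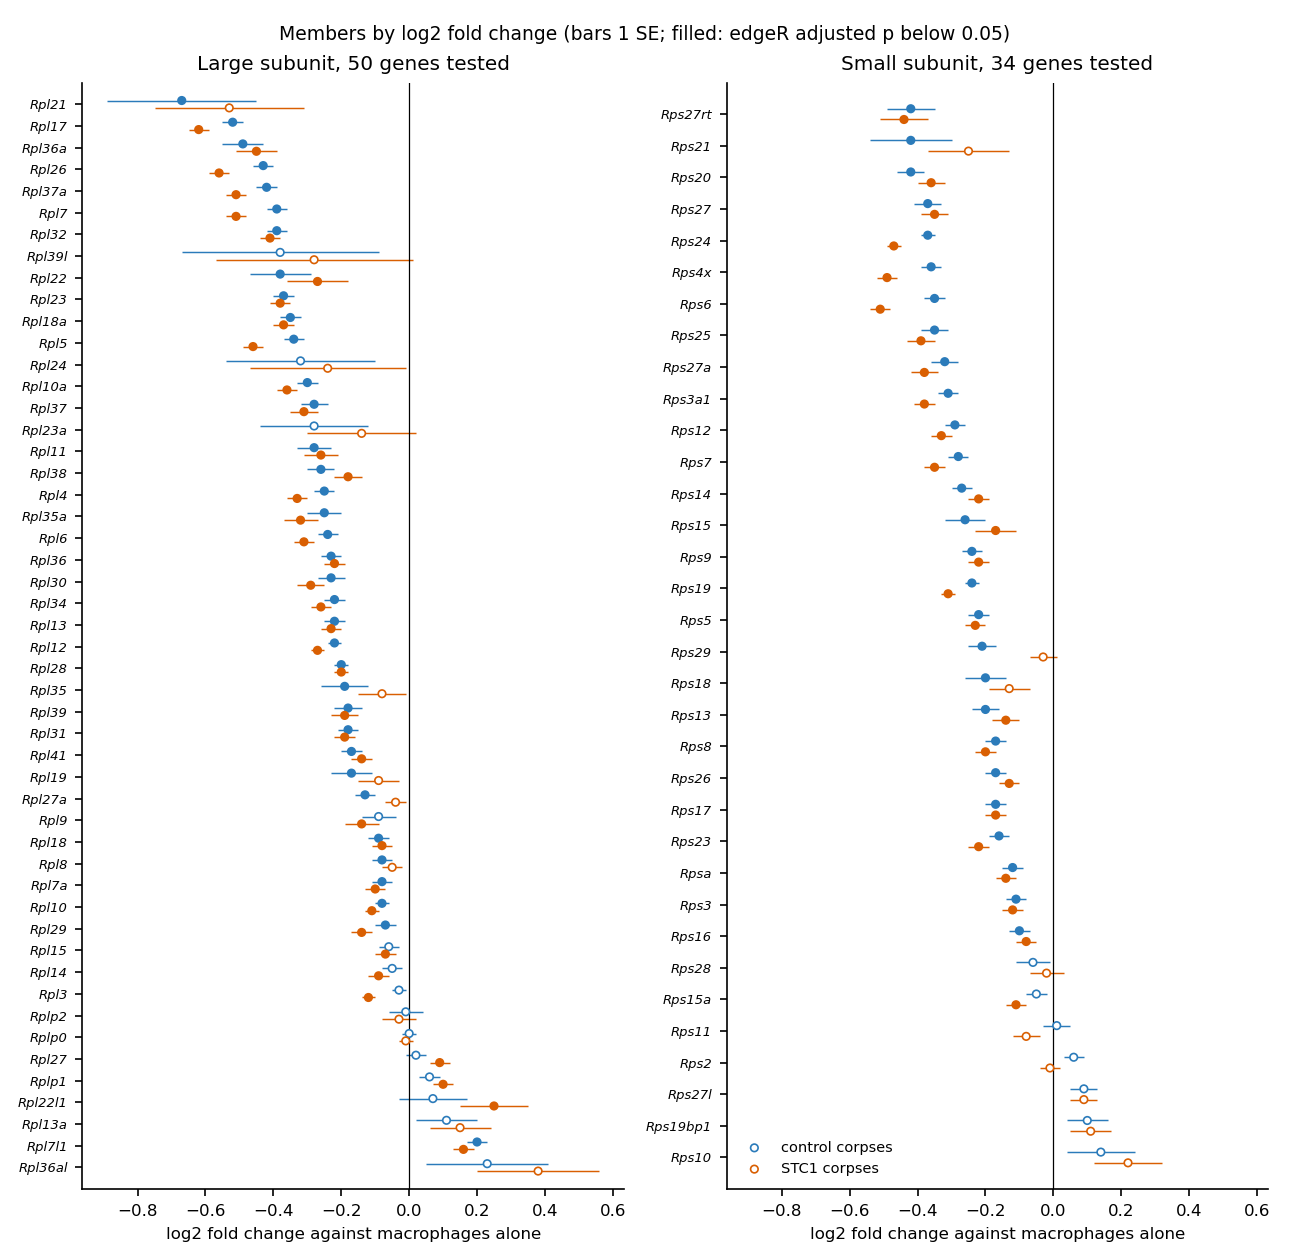
Fitted log2 fold change of each tested ribosomal protein gene with 1 standard error, in control and STC1OE corpse groups against macrophages alone; filled points passed the test. Most points of both subunits lie below 0, with medians of -0.22 and -0.20, and Rpl7l1 lies above 0 in both comparisons.

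Among large subunit genes of at least 10 CPM, the 3 largest falls of each comparison came from Rpl17, Rpl26, Rpl37a, Rpl36a and Rpl21. Rpl17 and Rpl26 encode proteins next to the exit of the tunnel through which the new protein chain leaves. Rpl17 had 152.5 to 158.3 CPM in the 4 libraries of macrophages alone, 113.9, 105.5, 106.3 and 106.1 with control corpses and 101.0, 98.9, 105.2 and 97.4 with STC1OE corpses. The 3 groups did not overlap. Its log2 fold change was -0.52 ± 0.03 (SE, edgeR adjusted p = 1.91e-15) with control corpses and -0.62 ± 0.03 (edgeR adjusted p = 2.54e-17) with STC1OE corpses.

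Rpl26 had 308, 298, 301 and 297 CPM in macrophages alone, 229, 219, 221 and 224 with control corpses and 213, 195, 205 and 201 with STC1OE corpses. All 4 libraries of each group again stood apart from the other groups, by -0.43 ± 0.03 (edgeR adjusted p = 1.53e-14) and -0.56 ± 0.03 (edgeR adjusted p = 1.99e-17) on the log2 scale against macrophages alone. Rpl37a, a zinc-binding protein of the large subunit, had 300 to 328 CPM in macrophages alone, 227 to 246 with control corpses and 214 to 230 with STC1OE corpses. Its log2 fold changes were -0.42 (edgeR adjusted p = 3.18e-12) and -0.51 (edgeR adjusted p = 3.14e-14). The printed windows of Rpl26 and Rpl37a hold no run of at least 5 pyrimidines. Both windows end before the annotated gene starts at 68901583 and 72711290, so they do not show whether these mRNAs begin with the tract.

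Rpl36a had 57.2, 58.2, 55.2 and 50.1 CPM in macrophages alone, 43.8, 38.6, 36.6 and 37.8 with control corpses and 40.1, 36.3, 41.6 and 43.1 with STC1OE corpses. Its log2 fold changes were -0.49 ± 0.06 (edgeR adjusted p = 2.35e-05) and -0.45 (edgeR adjusted p = 4.78e-05), with no overlap between corpse libraries and macrophages alone. Rpl21 had the lowest fitted value with control corpses but also the widest spread: 87.1, 86.9, 68.0 and 55.6 CPM in macrophages alone, 58.2, 43.0, 40.8 and 43.6 with control corpses and 42.5, 36.7, 60 and 66.0 with STC1OE corpses. The groups overlapped. Its log2 fold change of -0.67 ± 0.22 passed with control corpses (edgeR adjusted p = 0.0374) and that of -0.53 ± 0.22 did not with STC1OE corpses (edgeR adjusted p = 0.0852). The Rpl21 call was lost when any of the macrophages-alone libraries 1, 2 or 3 (adjusted p = 0.0982, 0.0965 and 0.0567) or of the control corpse libraries 2, 3 or 4 (adjusted p = 0.0884, 0.0977 and 0.0856) was left out of the edgeR fit, with log2 fold changes of -0.71 to -0.58.

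Among small subunit genes of at least 10 CPM, the 3 largest falls of each comparison came from Rps20, Rps24, Rps6, Rps4x and Rps21. Rps6 encodes the small subunit protein that S6 kinase phosphorylates. It had 353, 349, 345 and 326 CPM in macrophages alone, 287, 258, 262 and 270 with control corpses and 255, 231, 243 and 236 with STC1OE corpses. The 3 groups did not overlap, and the log2 fold changes were -0.35 ± 0.03 (edgeR adjusted p = 1.1e-08) and -0.51 ± 0.03 (edgeR adjusted p = 1.5e-11).

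Rps24, whose product takes part in processing the precursor of 18S rRNA and is mutated in Diamond-Blackfan anemia, had 287 to 294 CPM in macrophages alone, 220 to 229 with control corpses and 203 to 213 with STC1OE corpses. These ranges do not meet, and the log2 fold changes were -0.37 ± 0.02 (edgeR adjusted p = 7.22e-14) and -0.47 ± 0.02 (edgeR adjusted p = 2.32e-16). Rps4x, an X-linked gene of the small subunit body, had 435 to 469, 346 to 360 and 306 to 346 CPM, with log2 fold changes of -0.36 (edgeR adjusted p = 1.41e-10) and -0.49 (edgeR adjusted p = 1.27e-13). Rps20, which lies in the small subunit head, had 131 to 140, 98.5 to 105 and 97.2 to 115 CPM, with -0.42 ± 0.04 (edgeR adjusted p = 1.59e-07) and -0.36 ± 0.04 (edgeR adjusted p = 1.26e-06).

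Rps21 had 85.0, 86.2, 81.5 and 68.5 CPM in macrophages alone, 68.4, 60.1, 54.0 and 57.5 with control corpses and 60.1, 57.6, 77.2 and 75.7 with STC1OE corpses. Its log2 fold change passed with control corpses at -0.42 ± 0.12 (edgeR adjusted p = 0.0214) and not with STC1OE corpses at -0.25 ± 0.12 (edgeR adjusted p = 0.139). Without any 1 of the macrophages-alone libraries 1, 2 and 3 or the control corpse libraries 2, 3 and 4, the edgeR adjusted p of Rps21 was 0.0591, 0.0582, 0.0506, 0.0501, 0.0662 and 0.0553. The log2 fold change stayed between -0.41 and -0.36 in these fits. With STC1OE corpses Rps21 passed at -0.54 (edgeR adjusted p = 1.35e-07) with replicates 1 and 2 only and at -0.45 (edgeR adjusted p = 0.0245) without STC1OE libraries 3 and 4.

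**Figure D3:**
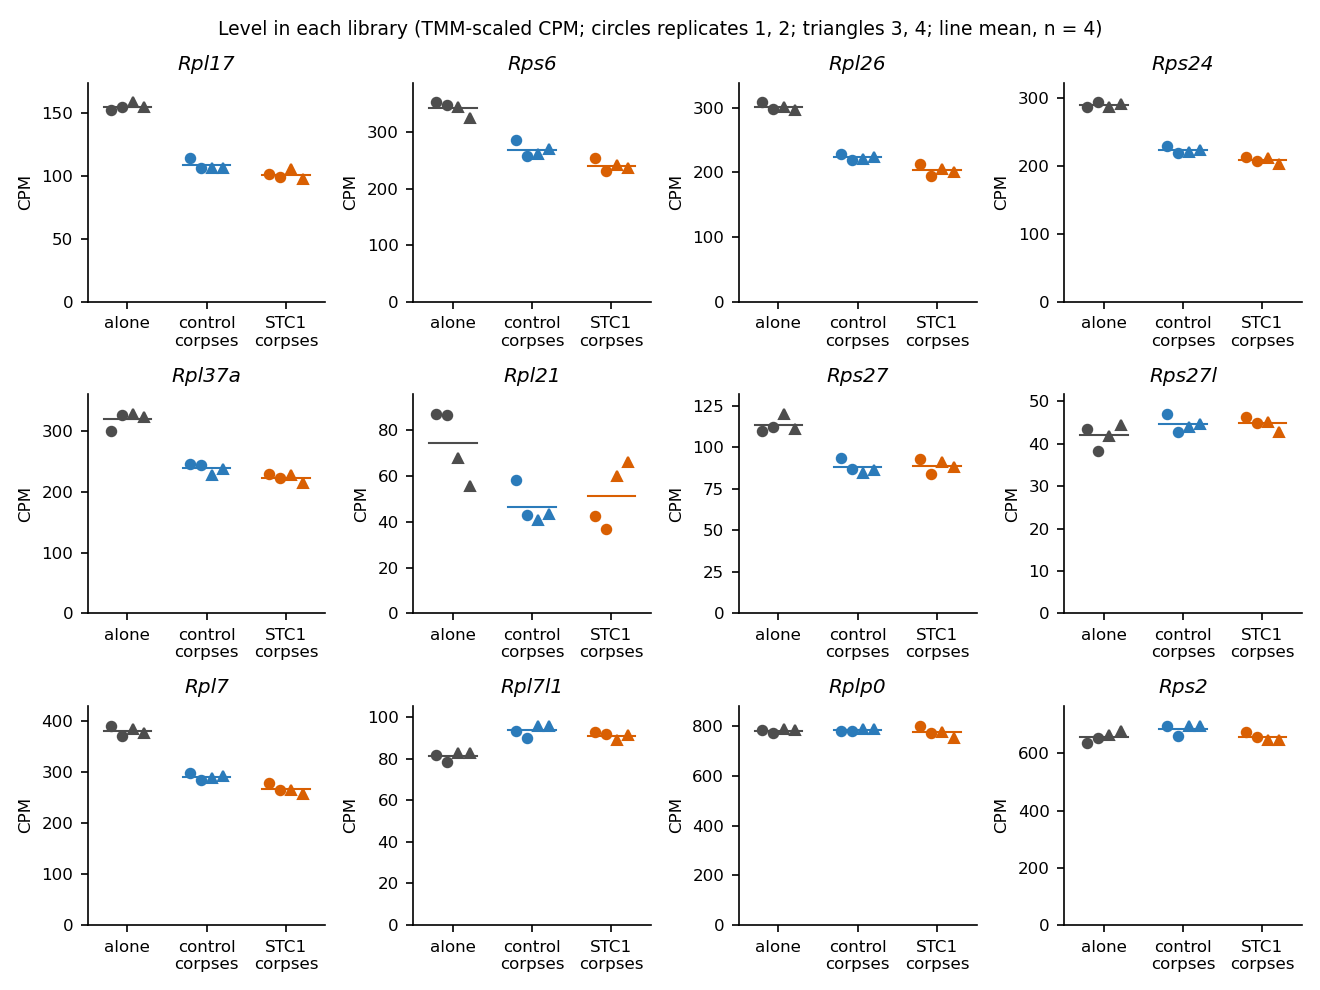
CPM of 12 ribosomal protein genes in every library of macrophages alone, control corpses and STC1OE corpses; circles are replicates 1 and 2, triangles replicates 3 and 4, and lines the group means. Rpl17, Rps6, Rpl26, Rps24 and Rpl37a step down from macrophages alone to the corpse groups, Rpl21 splits by replicate pair, and Rplp0 and Rps2 stay level.

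The genes whose products carry out named tasks outside or at the edge of the ribosome were read one by one. RPL5 and RPL11 form, with 5S rRNA, the particle that joins the large subunit and that binds MDM2 when ribosome assembly fails. Rpl5 had 300 to 318 CPM in macrophages alone, 235 to 257 with control corpses and 218 to 237 with STC1OE corpses, with log2 fold changes of -0.34 (edgeR adjusted p = 5.4e-11) and -0.46 (edgeR adjusted p = 5.06e-14). Rpl11 had 227 to 257, 193 to 217 and 188 to 215 CPM, with -0.28 ± 0.05 (edgeR adjusted p = 0.00143) and -0.26 (edgeR adjusted p = 0.002). Both genes thus fell in both comparisons without overlap with macrophages alone.

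The P-stalk, which recruits translation factors with GTPase activity, held 3 genes of which none passed as lower in either comparison. Rplp0, its base, had 783, 771, 787 and 783 CPM in macrophages alone, 778, 778, 789 and 789 with control corpses and 801, 772, 776 and 751 with STC1OE corpses. The fitted log2 fold changes of Rplp0 were 0.00 and -0.01 (edgeR adjusted p = 0.908 and 0.725). Rplp2 had 173 to 205, 181 to 194 and 177 to 198 CPM and log2 fold changes of -0.01 and -0.03 (edgeR adjusted p = 0.951 and 0.67). Rplp1 had 447, 474, 492 and 506 CPM in macrophages alone, 482 to 514 with control corpses and 496 to 533 with STC1OE corpses. The groups overlapped, and its log2 fold change was 0.06 (edgeR adjusted p = 0.161) with control corpses and 0.10 (edgeR adjusted p = 0.0116) with STC1OE corpses. The second call was lost at 0.05 (edgeR adjusted p = 0.227) without macrophages-alone libraries 1 and 2, the lowest of that group.

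Rps2, a protein of the mRNA entry side of the small subunit, was the most abundant small subunit gene by CPM and did not pass in either comparison. It had 635 to 679 CPM in macrophages alone, 659 to 696 with control corpses and 646 to 673 with STC1OE corpses, with log2 fold changes of 0.06 (edgeR adjusted p = 0.062) and -0.01 (edgeR adjusted p = 0.882). Rpsa, the small subunit protein also known as the laminin receptor, fell slightly: 576 to 588, 519 to 559 and 509 to 546 CPM, with -0.12 (edgeR adjusted p = 0.000361) and -0.14 (edgeR adjusted p = 5.41e-05). Rps27a, made as a fusion with ubiquitin, had 224 to 252, 183 to 201 and 179 to 195 CPM, with -0.32 (edgeR adjusted p = 3.79e-07) and -0.38 (edgeR adjusted p = 3.2e-08). Rpl27, of the large subunit, had 111 to 116, 112 to 119 and 115 to 126 CPM. It passed as higher with STC1OE corpses at 0.09 (edgeR adjusted p = 0.0105), and this call was lost without macrophages-alone library 3 at 0.08 (edgeR adjusted p = 0.0509).

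Rps29, a small zinc-binding protein of the small subunit head, differed between the corpse groups. It had 92.0, 96.6, 98.0 and 95.2 CPM in macrophages alone, 87.6, 85.5, 78.6 and 78.9 with control corpses and 96.9, 88.3, 97.1 and 91.4 with STC1OE corpses. The control corpse libraries lay below all others. The log2 fold change was -0.21 (edgeR adjusted p = 3.23e-05) with control corpses and -0.03 (edgeR adjusted p = 0.516) with STC1OE corpses, each against macrophages alone.

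Several ribosomal proteins have a second gene, and each is given beside its partner. Rpl7l1 and Rps19bp1 are placed beside Rpl7 and Rps19 by symbol alone. Rpl7 had 369 to 390 CPM in macrophages alone, 284 to 297 with control corpses and 257 to 278 with STC1OE corpses, with log2 fold changes of -0.39 (edgeR adjusted p = 1.94e-13) and -0.51 (edgeR adjusted p = 1.92e-16). Rpl7l1, named after it, had 81.6, 78.4, 83.0 and 82.6 CPM in macrophages alone, 93.4, 89.8, 95.9 and 95.9 with control corpses and 92.8, 91.7, 88.9 and 91.3 with STC1OE corpses. All 8 libraries with corpses lay above all 4 of macrophages alone, by 0.20 ± 0.03 (15.2% higher, edgeR adjusted p = 1.11e-06) and 0.16 ± 0.03 (11.9% higher, edgeR adjusted p = 3.47e-05). Rpl7l1 kept both calls when each library was left out in turn.

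Rps27 and its relatives are shown by sequence because the reads of 2 of them cannot be told apart inside the coding region. The GENCODE coding sequences of Rps27 (chr3:90212522-90213651, minus strand) and Rps27rt (chr9:114982366-114982739, minus strand), both of 255 bases, differ at 0 bases. Rps27l (chr9:66946086-66949516, plus strand) differs from Rps27 at 61 of 255 bases and is 76.1% identical. The sequences are given 5′ to 3′, with capitals in Rps27l for the bases that differ from Rps27.
Rps27: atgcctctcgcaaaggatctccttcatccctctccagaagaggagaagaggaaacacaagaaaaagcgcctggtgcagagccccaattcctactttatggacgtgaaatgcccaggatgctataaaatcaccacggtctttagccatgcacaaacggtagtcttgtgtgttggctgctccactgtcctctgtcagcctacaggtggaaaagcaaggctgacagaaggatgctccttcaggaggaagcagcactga
Rps27l: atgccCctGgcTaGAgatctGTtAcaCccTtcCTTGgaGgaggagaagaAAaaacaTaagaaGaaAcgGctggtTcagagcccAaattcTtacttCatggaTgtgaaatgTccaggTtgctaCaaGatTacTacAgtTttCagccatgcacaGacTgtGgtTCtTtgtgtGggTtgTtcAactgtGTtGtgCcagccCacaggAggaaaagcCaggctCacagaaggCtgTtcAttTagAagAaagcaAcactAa

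Rps27 had 110 to 120 CPM in macrophages alone, 84.3 to 93.4 with control corpses and 83.7 to 93.2 with STC1OE corpses, with log2 fold changes of -0.37 (edgeR adjusted p = 2.34e-09) and -0.35 (edgeR adjusted p = 5.88e-09). Rps27rt had 10.8 to 12, 7.85 to 9.11 and 7.75 to 8.69 CPM, with -0.42 (edgeR adjusted p = 7.46e-06) and -0.44 (edgeR adjusted p = 3.67e-06). With identical coding bases, how reads were shared between this pair is uncertain. Rps27l, a target of p53 in other cells, had 38.4 to 44.4, 42.7 to 47.0 and 42.8 to 46.4 CPM, with log2 fold changes of 0.09 (edgeR adjusted p = 0.105) and 0.09 (edgeR adjusted p = 0.0868). Rps27l did not pass in these fits, while it passed as higher with STC1OE corpses at 0.10 under DESeq2's size factors in edgeR (adjusted p = 0.0463), and in both comparisons without macrophages-alone library 1 (0.11 and 0.12, adjusted p = 0.0451 and 0.0382), without macrophages-alone library 4 (0.11 and 0.12, adjusted p = 0.0479 and 0.0385) and, against the group concerned, without control corpse library 2 (0.12, adjusted p = 0.0326) or STC1OE library 4 (0.13, adjusted p = 0.0219). It passed with STC1OE corpses also with only the groups compared (0.10, edgeR adjusted p = 0.0454) and, at more than the printed size, with GC and length trends removed (0.22, edgeR adjusted p = 0.000104).

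Rpl22 had 86.6 to 102 CPM in macrophages alone, 66.6 to 82.6 with control corpses and 70.1 to 83.9 with STC1OE corpses, with log2 fold changes of -0.38 (edgeR adjusted p = 0.00706) and -0.27 (edgeR adjusted p = 0.0378). The call of Rpl22 with STC1OE corpses was lost without any 1 of macrophages-alone libraries 1, 2 and 3 or STC1OE libraries 1, 2 and 3 (edgeR adjusted p = 0.0821, 0.0955, 0.0539, 0.104, 0.106 and 0.0502), with log2 fold changes of -0.29 to -0.21. Rpl22l1, which Rpl22 is known to repress, had only 3.93 to 4.15, 3.92 to 4.75 and 4.29 to 5.86 CPM, with 0.07 (edgeR adjusted p = 0.654) and 0.25 (edgeR adjusted p = 0.0491). The call of Rpl22l1 with STC1OE corpses ended without any 1 of the macrophages-alone libraries (log2 fold change 0.23 to 0.27, edgeR adjusted p = 0.0556 to 0.108), under DESeq2 (0.26, adjusted p = 0.0662) and without STC1OE library 3 (0.16, edgeR adjusted p = 0.239).

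Rpl36al had 1.00 to 1.53, 1.07 to 1.69 and 1.45 to 1.75 CPM and did not pass, with log2 fold changes of 0.23 (edgeR adjusted p = 0.314) and 0.38 (edgeR adjusted p = 0.0781). Without macrophages-alone library 2 the second value was 0.53 (edgeR adjusted p = 0.0236). Rpl39l, the copy of Rpl39 known from male germ cells, had 0.249 to 0.468 CPM over all libraries and did not pass (edgeR adjusted p = 0.321 and 0.459), while Rpl39 fell by 0.18 and 0.19 on the log2 scale (edgeR adjusted p = 0.000614 and 0.000338).

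Rpl3 had 437 to 458 CPM in macrophages alone, 432 to 443 with control corpses and 406 to 421 with STC1OE corpses. Its log2 fold changes were -0.03 (edgeR adjusted p = 0.316) and -0.12 (edgeR adjusted p = 0.000138). Rpl10, a protein that joins the large subunit late, fell by 0.08 (edgeR adjusted p = 0.00835) and 0.11 (edgeR adjusted p = 0.000383), the first call being lost without macrophages-alone library 1 (-0.06, adjusted p = 0.0612) or control corpse library 2 (-0.06, adjusted p = 0.0571), and the second with GC and length trends removed (-0.03, adjusted p = 0.416). Rps19, the gene most often mutated in Diamond-Blackfan anemia, fell by 0.24 (edgeR adjusted p = 1.62e-09) and 0.31 (edgeR adjusted p = 3.53e-12). Rps19bp1 had 13.8 to 15.6, 14.6 to 17.3 and 15.1 to 16.6 CPM and did not pass (0.10 and 0.11, edgeR adjusted p = 0.171 and 0.147).

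STC1OE corpses were then set against control corpses directly. The ribosomal protein genes differed little: the median log2 fold change was -0.01, and the summed level differed by -1.65%. The test called 8 genes lower (2.12% of all genes were lower), Rps6, Rps4x, Rps24, Rpl26, Rpl7, Rpl5, Rpl17 and Rpl3, and 1 higher (3.33% of all genes), Rps29. The changes were at most 1.12-fold among those that fell. Rps6 differed by -0.16 ± 0.03 (-10.4%, edgeR adjusted p = 0.00688), Rpl26 by -0.13 ± 0.03 (-8.86%, edgeR adjusted p = 0.00222) and Rpl7 by -0.13 (-8.37%, edgeR adjusted p = 0.00363). These 3 falls and the rise of Rps29, by 0.18 ± 0.04 (13% higher, edgeR adjusted p = 0.00403), were kept when each library was left out in turn.

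The other 5 genes lost the call without 1 library or more. Rps4x at -0.14 (edgeR adjusted p = 0.00713) lost it without STC1OE library 4 (-0.10, adjusted p = 0.0684). Rpl5 at -0.12 (edgeR adjusted p = 0.0128) and Rps24 at -0.10 (edgeR adjusted p = 0.0145) lost it without control corpse library 1 (-0.09 and -0.09, adjusted p = 0.0691 and 0.0601) or STC1OE library 4 (-0.10 and -0.07, adjusted p = 0.088 and 0.141). Rpl17 at -0.10 (edgeR adjusted p = 0.0374) and Rpl3 at -0.09 (edgeR adjusted p = 0.0276) lost it without any 1 of control corpse libraries 1, 3 and 4 or STC1OE libraries 2 and 4, and Rpl3 also without STC1OE library 3, at -0.11 to -0.07 and -0.09 to -0.07, with edgeR adjusted p up to 0.224 and 0.149. The count of lower genes was 3 without STC1OE library 4, 4 without control corpse library 1, and 12 without control corpse library 2 or without STC1OE library 1. In another fit, trends in GC content and in the summed length of a gene's exons were removed. There 3 genes were lower, 2 of them among the 8 (Rps6 and Rpl26, beside Rpl37a at -0.10). In that fit Rpl7 was at -0.06 (edgeR adjusted p = 0.157).

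In 7 of the 8 genes, Rpl3 being the exception, the level had also fallen with control corpses against macrophages alone. The order of the groups follows in part from how the 3 comparisons share libraries, and each gene's values in the groups stand above. The pigment cell genes were also lower with STC1OE than with control corpses, and the part of melanoma RNA in the ribosomal protein values was not tested.

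The libraries were next split by replicate number, 3 and 4 against 1 and 2, within each group. The split follows the labels' numbers, was noticed in earlier results of these data and is described with no test. The median log2 difference of the 84 genes, replicates 3 and 4 minus 1 and 2, was 0.004 in macrophages alone, -0.015 with control corpses and 0.008 with STC1OE corpses. For the large subunit it was 0.009, -0.024 and 0.019, and for the small subunit 0.002, -0.013 and -0.011. The medians thus lay close to 0 in each group, while single genes differed more.

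Libraries of the pairs did not overlap in 23 genes higher and 15 lower in replicates 3 and 4 of macrophages alone, where 19.9% and 18.5% of all genes were so. With control corpses the counts were 8 higher and 18 lower (14.9% and 15.9% of all genes). With STC1OE corpses they were 23 higher and 14 lower (20.8% and 18.8% of all genes). Among the 76 genes of at least 10 CPM, the difference stayed within 0.1 in 64, 67 and 59 genes (84.2%, 88.2% and 77.6%). It was past 0.2 in 1, 2 and 3 (1.32%, 2.63% and 3.95%). Of all 8015 genes of at least 10 CPM, 85.1%, 90.7% and 82% stayed within 0.1, and 1.85%, 0.823% and 3.16% were past 0.2.

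Several genes moved in opposite directions in macrophages alone and with STC1OE corpses, and others did not. Rpl21 differed by -0.50 in macrophages alone, -0.25 with control corpses and 0.67 with STC1OE corpses. Rps21 differed by -0.20, -0.20 and 0.38, Rpl22 by -0.15, -0.14 and 0.22, Rps20 by -0.05, -0.06 and 0.19, and Rpl11 by -0.12, -0.05 and 0.14. Rplp2 went the other way, with 0.16, 0.05 and -0.14. Rpl35a differed by 0.13, -0.05 and -0.18, and Rpl9 was higher by 0.14 in replicates 3 and 4 of macrophages alone. Rpl24, with a mean of only 0.716 CPM, moved the same way in all groups, by -0.27, -0.29 and -0.28. Rpl35 also kept its sign, with -0.02, -0.15 and -0.20.

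Of the 76 genes, 49 had opposite signs in macrophages alone and with STC1OE corpses, and 11 had opposite signs in macrophages alone and with control corpses. The share of all genes with opposite signs was not counted, so these counts do not set the ribosomal protein genes apart. Across the 76 genes Pearson's r of the differences was -0.803 between macrophages alone and STC1OE corpses and 0.689 between macrophages alone and control corpses. Across all 84 tested genes it was -0.615 and 0.509, and with Rpl21 left out of the 84 it was -0.468 and 0.446. Spearman's rho over the 84 was -0.435 and 0.546, so the size of the relation depended on Rpl21 and on the genes included. Over the 8015 genes of at least 10 CPM the same values were -0.341 and 0.265. Genes of a library share its depth and composition and are not replicates, so these values describe the libraries. The share of counts on the 37 genes of the mitochondrial genome split the same way: 4.36%, 4.00%, 3.37% and 3.19% in replicates 1 to 4 of macrophages alone, 3.74%, 3.29%, 3.13% and 3.13% with control corpses, and 3.41%, 3.29%, 4.29% and 4.29% with STC1OE corpses. The part of this split in the gene values was not tested.

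**Figure D4:**
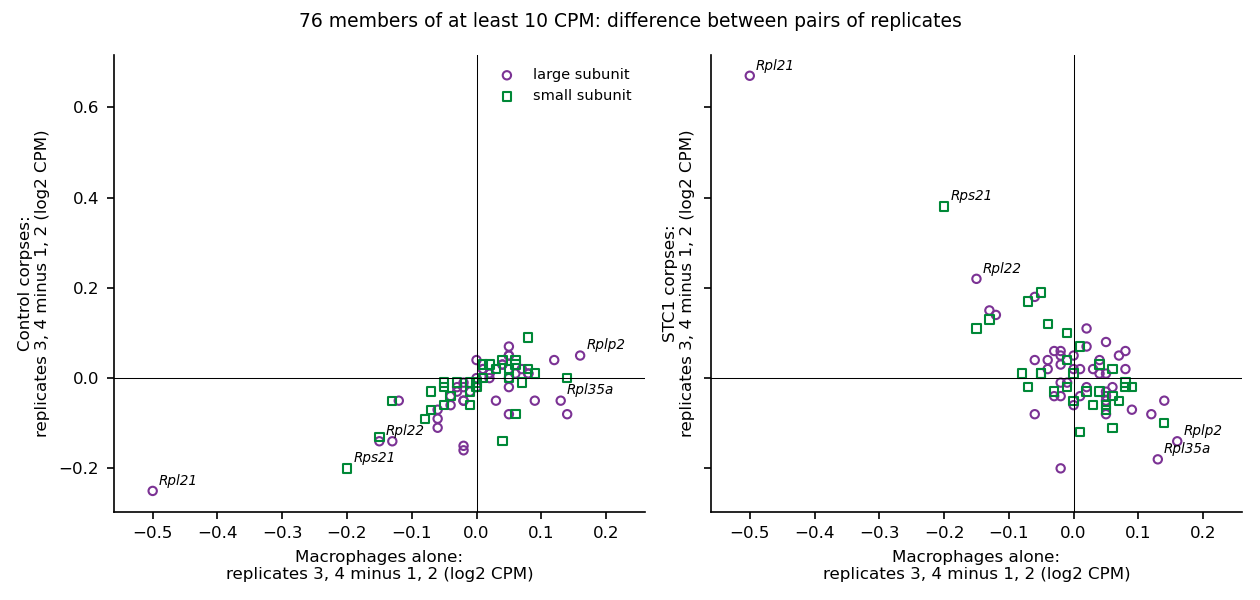
Log2 difference of replicates 3 and 4 minus replicates 1 and 2 for the 76 ribosomal protein genes of at least 10 CPM, in macrophages alone (horizontal) against control corpses and against STC1OE corpses (vertical). Rpl21 lies at -0.50 in macrophages alone and at 0.67 with STC1OE corpses. Pearson's r between these 2 groups is -0.803 over the 76 genes and -0.341 over all 8015 genes of at least 10 CPM. Over all 84 tested ribosomal protein genes it is -0.615, and -0.468 with Rpl21 left out of the 84.

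The split bears on the direct comparison of the corpse groups. With replicates 1 and 2 alone, 0 of 84 genes passed edgeR's adjusted threshold, with 11 lower and 2 higher at an unadjusted p under 0.05. In that fit only 0.0363% of all genes were lower and 0.164% higher, so the 0 is no result about the ribosomal protein genes. With replicates 3 and 4 alone, 15 genes were lower and 11 higher (3.78% and 7.83% of 16576 genes). Rpl22 was then higher by 0.30 (edgeR adjusted p = 1.21e-08), Rpl36a by 0.19 (edgeR adjusted p = 0.00551) and Rps20 by 0.18 (edgeR adjusted p = 3.67e-05), while Rplp2 was lower by 0.12 (edgeR log2 fold change -0.12, adjusted p = 0.00163). Without STC1OE libraries 3 and 4, 0 genes passed edgeR's adjusted threshold (0.31% of all genes were lower and 0.668% higher), with 14 lower and 4 higher at an unadjusted p under 0.05. Against macrophages alone, replicates 1 and 2 gave 50 genes lower with control corpses (12.7% of all genes), all among the 62, and 57 with STC1OE corpses (14.5%), of which 51 were among the 59. Replicates 3 and 4 gave 64 (18.2% of all genes) and 59 (19.9%), of which 60 and 57 were among them.

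Other gene lists of the translation machinery were read against the share of all genes called: 20.5% lower and 19.7% higher with control corpses, and 22.4% lower and 21.4% higher with STC1OE corpses. Of the ribosomal proteins outside the naming rule, Fau, a fusion of a ubiquitin-like protein and a small subunit protein, had 290 CPM in macrophages alone, 227 with control corpses and 223 with STC1OE corpses (group means). Its log2 fold changes were -0.35 ± 0.02 (edgeR adjusted p = 3.23e-13) and -0.38 (edgeR adjusted p = 4.89e-14). Rack1, a signalling scaffold on the small subunit, had means of 480, 473 and 463 CPM and did not pass.

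Other mRNAs with a TOP tract, among them translation elongation factors, were in part lower as well: 11 of 21 were lower and 1 higher with control corpses (median -0.09, all genes 20.5% and 19.7%), and 12 lower and 1 higher with STC1OE corpses (median -0.12, all genes 22.4% and 21.4%). Eef1b2, a subunit of the elongation factor that recharges eEF1A, had means of 134, 91.8 and 94.9 CPM and fell by 0.54 (edgeR adjusted p = 0.000735) and 0.49 (edgeR adjusted p = 0.00128). Gas5, a noncoding TOP RNA that hosts small nucleolar RNAs, fell by 0.35 and 0.34.

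Most tested genes for building ribosomes were higher with corpses. Of 63 tested ribosome biogenesis genes, 46 were higher and 2 lower with control corpses (median 0.22, all genes 19.7% and 20.5%), and 44 higher and 2 lower with STC1OE corpses (median 0.22, all genes 21.4% and 22.4%). Their summed level was 2947 to 3091 CPM in macrophages alone, 3337 to 3638 with control corpses and 3308 to 3606 with STC1OE corpses. Rrp12, needed for export and maturation of both subunits, had means of 34.4, 51.4 and 52.4 CPM and rose by 0.58 (edgeR adjusted p = 8.63e-14) and 0.61 (edgeR adjusted p = 2.66e-14). Grwd1, a chaperone of a large subunit protein, rose by 0.51 and 0.54. Sbds, which helps free the large subunit for its first round of translation, fell by 0.25 and 0.18.

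RNA polymerase I transcribes the rRNA precursor. Of 15 tested genes of this polymerase and its factors, 7 were higher and 1 lower with control corpses (median 0.12, all genes 19.7% and 20.5%), and 7 higher and 2 lower with STC1OE corpses (median 0.12, all genes 21.4% and 22.4%). Polr1b and Polr1a, its 2 largest subunits, rose by 0.50 and 0.45 with control corpses and by 0.46 and 0.48 with STC1OE corpses. Myc, a transcription factor that drives ribosome production, had means of 56.3, 75.5 and 77.4 CPM and rose by 0.43 (edgeR adjusted p = 2.27e-05) and 0.46 (edgeR adjusted p = 9.36e-06).

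Proteins of the mitochondrial ribosome are encoded in the nucleus by genes of their own. Of 75 tested mitochondrial ribosomal protein genes, 24 were higher and 3 lower with control corpses (median 0.08, all genes 19.7% and 20.5%), and 29 higher and 5 lower with STC1OE corpses (median 0.10, all genes 21.4% and 22.4%). They took 0.132%, 0.138% and 0.135% of counts in the 3 groups (means of 4). Mrps18b rose by 0.46 and 0.49.

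**Figure D5:**
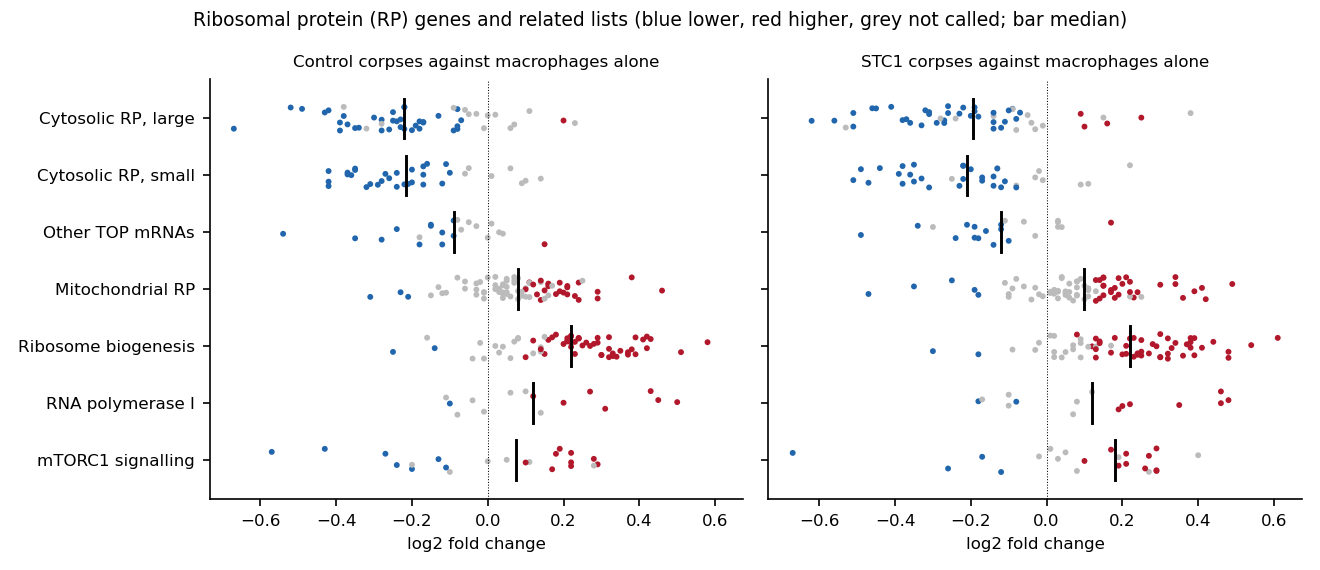
Log2 fold change of every tested gene in 7 lists of the translation machinery, with corpses against macrophages alone; blue is lower, red higher and grey not called, and the bar is the median. Cytosolic ribosomal protein genes of both subunits centre near -0.2, ribosome biogenesis genes at 0.22.

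Signalling genes upstream of TOP mRNAs were mixed. Of 22 genes of the mTORC1 list, 9 were higher and 7 lower with control corpses (median 0.08, all genes 19.7% and 20.5%), and 10 higher and 4 lower with STC1OE corpses (median 0.18, all genes 21.4% and 22.4%). Deptor, an inhibitor bound to mTOR, fell by 0.57 and 0.67, and Eif4e, the cap-binding protein, rose by 0.29 and 0.29. Between the corpse groups 4 genes of this list were higher with STC1OE corpses and 0 lower, with 3.33% of all genes higher. Sesn2, an inhibitor of mTORC1 induced by stress, was higher by 0.22 (edgeR adjusted p = 0.00289), and Eif4ebp1, a translation repressor that mTORC1 phosphorylates, by 0.19 (edgeR adjusted p = 0.00179).

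Free ribosomal proteins can raise p53 through MDM2, so p53 and its targets were listed. Of 11 genes, 3 were higher and 4 lower with control corpses (median -0.09), and 4 higher and 4 lower with STC1OE corpses (median 0.04), where the shares of all genes were 19.7% and 20.5%, and 21.4% and 22.4%. Bbc3, which encodes the cell death protein PUMA, fell by 0.92 (edgeR adjusted p = 3.13e-12) and 0.76. Cdkn1a, which encodes the cell cycle inhibitor p21, fell by 0.24 (edgeR adjusted p = 1.6e-08) and 0.09. The smaller fall of Cdkn1a, with STC1OE corpses, was lost without STC1OE library 2 at -0.06 (edgeR adjusted p = 0.112). Mdm2 rose by 0.21 and 0.31 in these comparisons.

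Features that the naming rule did not use were set beside the size of the fall. Removing GC and length trends moved the median from -0.217 to -0.205 with control corpses and from -0.199 to -0.138 with STC1OE corpses. Across the 84 genes Spearman's rho of the log2 fold change was 0.21 with control corpses and 0.24 with STC1OE corpses for the GC content of the longest transcript, 0.03 and -0.12 for the mean level, and 0.07 and -0.06 for the transcript length. In the direct comparison it was -0.45 for the mean level and -0.36 for the length, so the more abundant genes had the lower values with STC1OE corpses. Genes with a pyrimidine run at the listed start had medians of -0.19 and -0.19 (38 genes), and those without one of -0.25 and -0.20 (26 genes). Genes with the letters CCGGAAG had medians of -0.19 and -0.18 (25 genes), those without of -0.22 and -0.22 (39 genes). These values cover 1 set of libraries and genes that share them, and no test was made.

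Reads from copies of these genes followed the same order. The 294 named ribosomal protein pseudogenes, whose reads can come from the parent genes, took 0.0444% to 0.0463% of counts in macrophages alone, 0.0377% to 0.0406% with control corpses and 0.0354% to 0.0384% with STC1OE corpses. Markers of other cells moved as well. The 12 neutrophil markers summed to 248.6 to 256.0, 150.4 to 165.3 and 145.7 to 156.5 CPM, with 7 of 8 tested lower in both comparisons with macrophages alone. The 6 B cell markers summed to 14.5 to 15.8, 4.6 to 5.32 and 4.35 to 4.74 CPM. Of the 3 tested, 1 was lower with control corpses (log2 fold changes -2.30 to -0.09, median -0.14). With STC1OE corpses 2 were lower (-2.32 to -0.12, median -0.36). The melanocyte markers without Mitf, which macrophages express, summed to 7.39 to 8.79, 20.4 to 25.6 and 15.6 to 17.8 CPM over 16 genes. Of the 5 mast cell and basophil genes, Fcer1a and Mcpt8 were at 0 in all libraries. The 1 tested gene of this list was lower in both comparisons, at -0.38 and -0.60. The 6 fibroblast markers summed to 18.5 to 24.4, 13.1 to 17.4 and 14.4 to 15.7 CPM, with 2 of 4 tested lower in each. The 1 tested T and NK cell gene was higher with STC1OE corpses (0.25) and not called with control corpses (0.08). The part of these cells in the ribosomal protein values was not tested.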

How the data were processed

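The 12 deposited files hold raw read counts per gene, made by the authors with HTSeq from HISAT2 alignments on mm10 or GRCm38; the submitters' processing notes also name DESeq2, and versions, annotation release and strand setting are not given in the sources used here. Lines that name no gene (no feature 10.55% to 14.69%, ambiguous 5.532% to 6.619%, low quality 5.174% to 5.853%, not aligned 10.81% to 17.77%, not unique 5.738% to 7.028%, as percent of all counted lines, genes included) were left out. Multi-mapping reads were thus not counted, which lowers genes with close copies. Gene types came from GENCODE M21 for 54809 of 55604 identifiers. Symbols came from a separate list of gene names, for 54723 of them.

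Counts were tested with edgeR 4.0.16 in R 4.3.3: filterByExpr (minimum count 10, minimum total 15), TMM factors, robust quasi-likelihood fits over all 12 libraries, 2-sided, with Benjamini-Hochberg adjustment over 16406 genes and a threshold of 0.05. SE is the log2 fold change divided by the square root of F. CPM were scaled by TMM, and log2 CPM for the replicate pairs used a prior count of 2. The design text calls the replicates independent experiments, but same-numbered libraries did not deviate together throughout, so no pairing was used in the main fit. The fit was tested on simulated data. One planned item is not reported here.

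The genes, lists and comparisons were chosen with earlier results of these data known. Named genes were the 3 highest and 3 lowest called per comparison and subunit at 10 CPM or more, paralogs with partners, the extremes per length and per replicate pair, P-stalk genes, Rpsa, Rps27a and up to 3 genes per list; Rpl11, Rps2, Sbds, the low-level genes listed together and the printed windows were chosen after their values were seen. Alternatives were other size factors, DESeq2 1.42.0, no filter, a replicate block, replicate pairs, a 1.2-fold test and leaving out libraries; removal of GC and length trends and of libraries in pairs was added after seeing the data.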

Additional observations from a re-analysis of the deposited data

Results flagged for a closer look

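In 8 of 126 groups of 4 libraries checked, the highest or lowest library stood apart from the other 3 by more than Dixon's 95% critical value for 4 samples, as a share of the group's range; chance flags about 1 in 20 groups. With control corpses, library 1 was the highest in 4 of these: Rpl21 (58.2 CPM against 40.8 to 43.6, share 0.838), Rpl17 (114 CPM against 106 in the others, share 0.909), Rpl22 (82.6 CPM against 66.6 to 68.0, share 0.911) and Rpl35a (73.4 CPM against 68.2 to 68.5, share 0.948). With STC1OE corpses, Rpl36al was highest in library 2 (1.75 CPM against 1.45 to 1.49, share 0.861) and Rpl41 in library 1 (384 CPM against 358 to 362, share 0.831). In macrophages alone, Rps27 was highest in library 3 (120 CPM against 110 to 112, share 0.867), and Rpl39l was lowest in library 2 (0.306 CPM against 0.449 to 0.468, share 0.883).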

How the results depend on the processing

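The ribosomal protein genes were lower by median with corpses than in macrophages alone in all alternatives run, and the causes of the changes below were not tested. Against the 62 lower genes with control corpses, the 1.2-fold test gave 16, and leaving out 1 library gave 52 to 62. Against the 59 with STC1OE corpses these were 24 and 52 to 57. Removal of GC and length trends gave 60 lower genes with control corpses and 49 with STC1OE corpses. The median log2 fold change ranged from -0.233 to -0.19 and from -0.205 to -0.172 when 1 library was left out, and was -0.138 with STC1OE corpses after GC and length trends were removed, against -0.199. Higher genes with control corpses (1) numbered 1 to 4 without 1 library, 2 with RLE size factors, DESeq2, only the groups compared, the replicate block or without macrophages-alone libraries 1 and 2, 3 without GC and length trends, and 0 in the 1.2-fold test. Higher genes with STC1OE corpses (4) numbered 2 to 5 without 1 library. They numbered 2 with replicates 1 and 2 only or without STC1OE libraries 3 and 4. The number was 6 without GC and length trends and 0 in the 1.2-fold test.

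Between the corpse groups, the 8 lower and 1 higher genes became 3 to 12 and 1 to 3 without 1 library, 0 and 0 with replicates 1 and 2 only, in the 1.2-fold test or without STC1OE libraries 3 and 4, 15 and 11 with replicates 3 and 4 only, and 3 and 2 without GC and length trends; 2 were higher with RLE, DESeq2 or the block. The median (-0.014) ranged from -0.024 to 0.004 and was 0.029 without these trends. Same-numbered libraries did not deviate together throughout (r of deviations -0.33 to 0.38, 6 of 12 pairs over 0.1), which cannot exclude a pairing. The replicate block is given only here: 58 lower and 2 higher with control corpses, 56 and 3 with STC1OE corpses, and 11 and 2 between them. The difference of subunit medians, large minus small, was -0.001, 0.016 and -0.010 and ranged from -0.007 to 0.023, -0.012 to 0.033 and -0.013 to 0.008 without 1 library; it was 0.037 with replicates 1 and 2 only and 0.030 without macrophages-alone libraries 1 and 2 (control corpses), and -0.006 (STC1OE corpses) and 0.008 (between them) with replicates 3 and 4 only. The structural set with Fau and Rack1 in place of Rpl7l1 and Rps19bp1 took 2, 1.73 and 1.64% of counts. Over single named genes, 4136 values stayed on the same side of the threshold, called or not, 65 gained a call, 312 lost one, and Nap1l1, with no call between the corpse groups, had the opposite sign and a call at 0.10 with replicates 3 and 4 only.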
